A study of Mus musculus with 24 samples.

Results

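The interstitial collagens and their partner proteins, the collagen chains other than those of type IV together with proteoglycans, glycoproteins, enzymes and enzyme inhibitors of the connective tissue of muscle, were followed in the *M. gastrocnemius* of mice after acute hypoxia. Members were taken by gene symbol from the non-control probes of the array, as every collagen chain except *Col4a* genes and 17 named genes; the rule uses no measured difference, although the set was chosen with earlier results of these data known. This gave 54 genes read by 79 of 55681 probes. A gene counted as measured where the Cy5 signal of a probe averaged over 2 times the local background across the 24 arrays, which held for 30 of the 54 genes and 34 of their 79 probes.

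The 24 arrays carried total RNA of 12 Norm mice (20.9% oxygen) and 12 Hypox mice (12% oxygen), 1 mouse per array. All were fasted male C57BL/6JOlaHsd mice, which arrived at 10 weeks of age, ate a purified low-fat diet (10% energy from fat) for 3 weeks and a high-fat diet (40%) for 6 weeks, and were killed directly after the 6 h exposure. Both groups thus shared the high-fat diet and the fast. Each sample was labelled with Cy5 and hybridised against a Cy3-labelled reference pool of all samples, so that every value is a log2 ratio to that pool. After normalization within arrays, 0 need not be the pool's level of a gene. *Timp4*, for example, lay below 0 on all 24 arrays (highest -0.04 in Norm and -0.01 in Hypox). A ratio compares arrays for 1 gene, not genes with each other. Every one of the 6 slides held 2 Norm and 2 Hypox arrays, and the mean Cy5 signal per array was lowest on slide 1 (58.3 to 102) and highest on slide 6 (645 to 1014). The tissue is whole muscle: all 8 muscle fibre markers were measured, with *Acta1*, skeletal muscle actin, at 2130 times background, and fewer cells of a type cannot be told from less RNA per cell. The lowest correlation between the ratios of 2 arrays was that of Hypox replicate 2 with Norm replicate 12 (r = 0.0203), a value that singles out neither. Hypox replicate 2 had the lower array weight (0.183 against 0.749). Results that rest on it are also given without it.

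The interstitial matrix is built mainly by fibroblasts between the muscle fibres. Fibrillar collagens of types I, III and V assemble into fibrils, whose surface is coated by fibril-associated (FACIT) collagens and small leucine-rich proteoglycans and whose spacing and strength depend on them. Collagen VI forms beaded filaments that link fibrils to the fibre surface. Collagen chains are folded and hydroxylated in the endoplasmic reticulum by enzymes that use molecular oxygen, are cross-linked outside the cell by lysyl oxidases, and are cleaved by metalloproteinases, which TIMP proteins inhibit.

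Of the 30 measured members, 3 were higher (*Fmod*, *Postn* and *Timp4*) and 6 were lower (*Col1a2*, *Col22a1*, *Dcn*, *Ogn*, *Timp2* and *Timp3*) in Hypox at the study's threshold of 0.05 without adjustment. Over all 9139 genes tested by limma, 7.17% were higher and 5.07% lower at that threshold, and 0.339% passed after Benjamini-Hochberg (BH) adjustment over all genes (0.0875% higher and 0.252% lower), among them 0 members. SE stands for standard error and every p for that of limma unless another test is named. The median log2 fold change of the 30 members was 0.026, beside 0.029 over all genes, and 16 members lay above 0 and 14 below. The members therefore did not shift as a whole, and those that passed the unadjusted test split between both directions. None of the 9 had groups that did not overlap. With the slide as a block, 2 members were higher and 6 lower, where 8.03% and 6.16% of all genes were, and *Dcn* alone passed the adjustment, where 0.766% of all genes did.

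**Figure D1:**
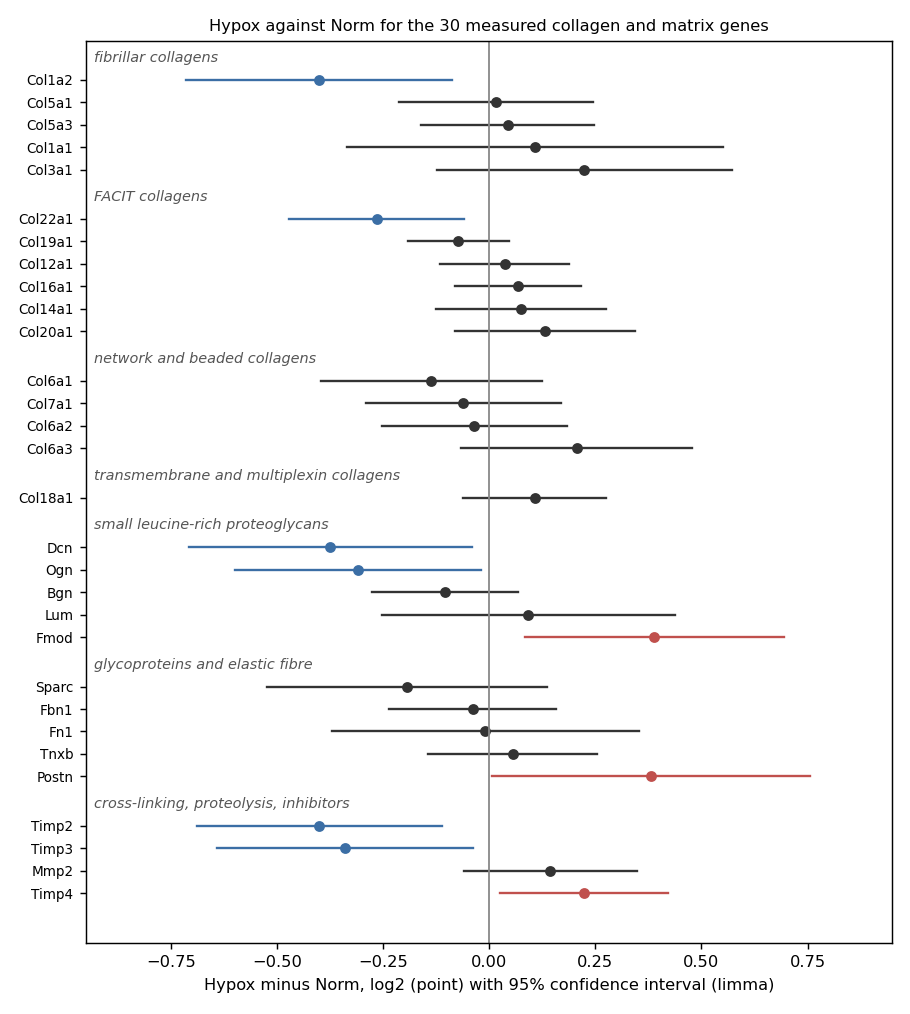
Difference between 12 Hypox and 12 Norm arrays for the 30 measured members, as Hypox minus Norm on the log2 scale (points) with limma's 95% confidence interval (lines), grouped by kind of protein. Blue genes were lower and red genes higher at an unadjusted p under 0.05; 9 intervals leave out 0, from *Col1a2* at -0.40 to *Fmod* at 0.39.

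How bright the probes were differed widely (the plot of signal over background). Of the proteoglycans all 5 were measured, of the glycoproteins and elastic fibre proteins 5 of 6, of cross-linking enzymes, proteases and inhibitors 4 of 6, of FACIT collagens 6 of 9, of fibrillar collagens 5 of 11, of network and beaded collagens 4 of 11, and of transmembrane and multiplexin collagens 1 of 6. *Col12a1* (2.01 times background) and *Col20a1* (2.121) lay just inside the threshold, and *Col8a2* (1.73) and *Timp1* (1.66) just outside. *Timp1*, an inhibitor of metalloproteinases, was well above background on 9 of 24 arrays, and *Lox*, the lysyl oxidase that cross-links collagen and elastin, and *Col15a1*, a multiplexin of basement membranes, on at most 3. *Col19a1* passed only through 1 flagged reading, on Norm replicate 11. Without flagged readings 29 members were measured, and *Col19a1*, which was well above background on 1 Norm and 0 Hypox arrays, is given here for completeness only (difference -0.07, p = 0.218).

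**Figure D2:**
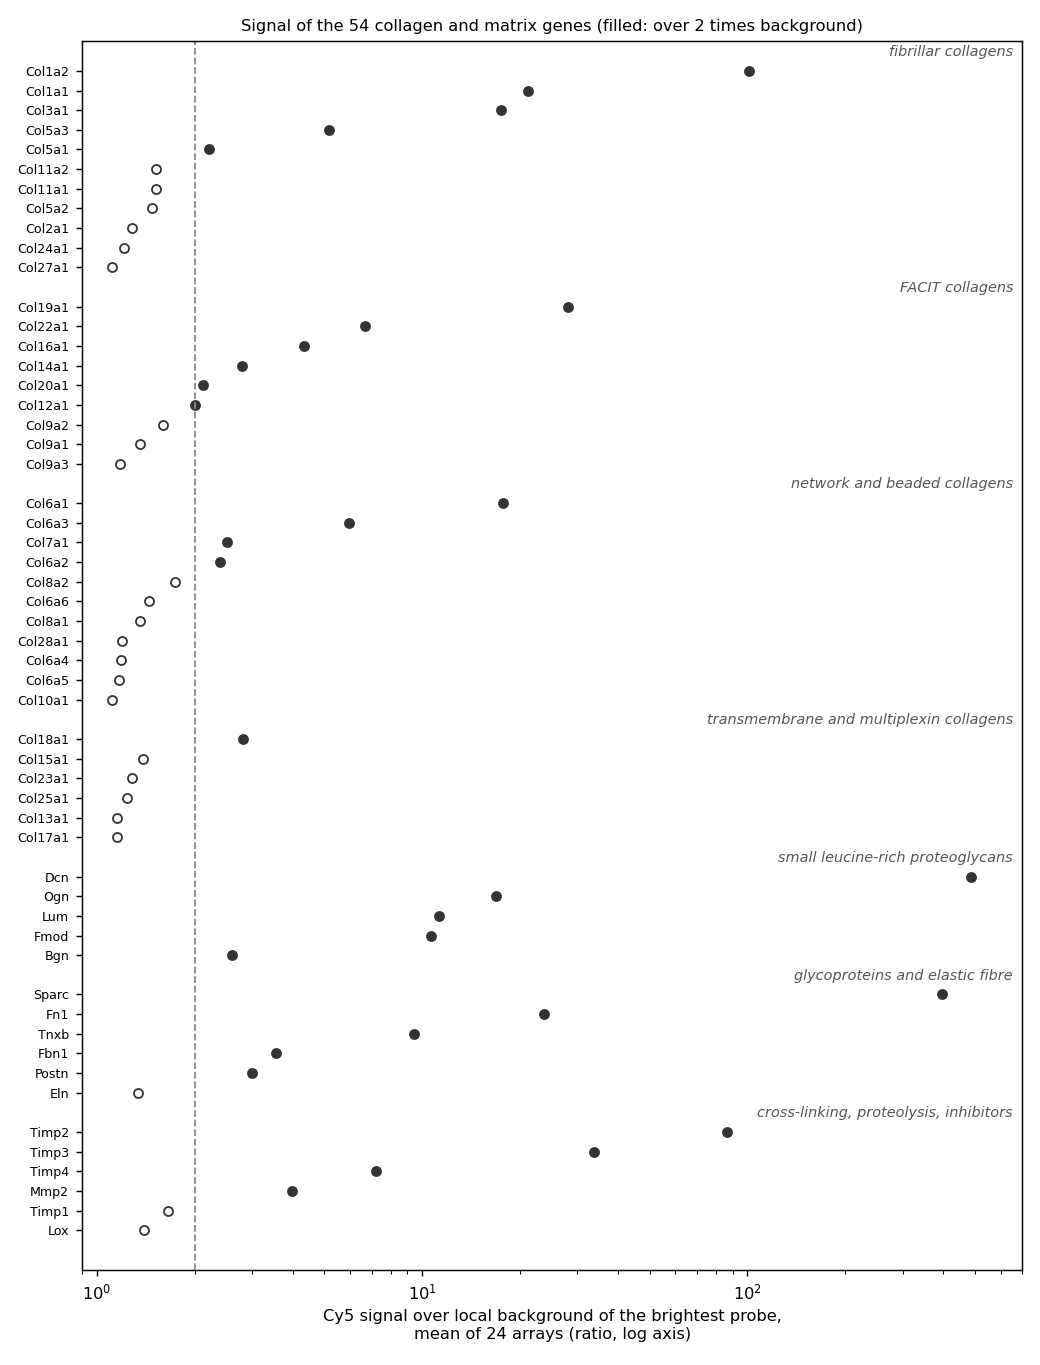
Cy5 signal over local background of the brightest probe of each of the 54 genes, as the mean of 24 arrays on a log axis; filled points are the 30 genes over 2 times background (dashed line). The probes of *Dcn* (487) and *Sparc* (396) lay farthest above background, and *Col19a1* (28.0) owes its place to 1 flagged reading.

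Of the fibrillar collagens, 1 of 5 measured chains passed, as lower. *Col1a2*, the α2 chain of type I collagen, is read by a probe at chr6:4490619-4490678 (mm9). Its log2 ratio ran from -0.68 over a median of -0.05 to 0.34 in Norm and from -1.27 over -0.35 to 0.27 in Hypox. No Hypox array lay above every Norm array, 5 lay below every Norm array, and the other 7 overlapped with Norm. The mean fell from -0.067 ± 0.27 (SD, n = 12) to -0.47 ± 0.50 (SD, n = 12), a log2 difference of -0.40 with SE 0.153 (0.758-fold, p = 0.0141, BH-adjusted 0.266). It lay lower on 5 of 6 slides, while slide 5 had it 0.33 higher. Without slide 1 the difference was -0.33 (p = 0.0579), and without Hypox replicate 2 it was -0.33.

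*Col1a1*, the α1 chain of the same molecule (chr11:94813115-94813174), did not pass. It ran from -1.17 over -0.74 to -0.04 in Norm and from -1.45 over -0.72 to 0.92 in Hypox, with 6 of 12 Hypox arrays above the Norm median. The difference was 0.11 (standard error 0.216, 95% confidence interval -0.34 to 0.55, p = 0.622). The sign of the *Col1a1* difference hung on Hypox replicate 12, without which it was -0.03. The 95% interval given above is that of all arrays. This interval overlaps with that of *Col1a2* (-0.71 to -0.09), and a difference between the chains was not tested. *Col3a1*, the chain of reticular type III collagen (chr1:45405589-45405648), ran from -0.75 over -0.42 to -0.03 in Norm and from -1.03 over -0.24 to 1.16 in Hypox, and differed by 0.22 (standard error 0.169, p = 0.197). Here 4 Hypox arrays lay above every Norm array and 1 below. The type V chains *Col5a1* (0.02, p = 0.890) and *Col5a3* (0.04, p = 0.663), which regulate fibril diameter, differed by less than their standard errors of 0.112 and 0.0996.

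The spread among arrays was also set beside that of all genes. The SD among arrays was larger in Hypox than in Norm for 5 of 5 fibrillar chains, for 12 of 16 collagens and for 19 of 30 members, beside 58.4% of all genes. It was 0.72 against 0.40 for *Col1a1*, 0.59 against 0.24 for *Col3a1* and 0.50 against 0.27 for *Col1a2*. For *Col5a1* (0.33 against 0.23) and *Col5a3* (0.27 against 0.22) it differed less. An SD over 1.5 times that of Norm was seen for 10 of 30 members and for 22.8% of all genes. These counts are a description. The spread was not tested, nor was it recomputed without single arrays.

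**Figure D3:**
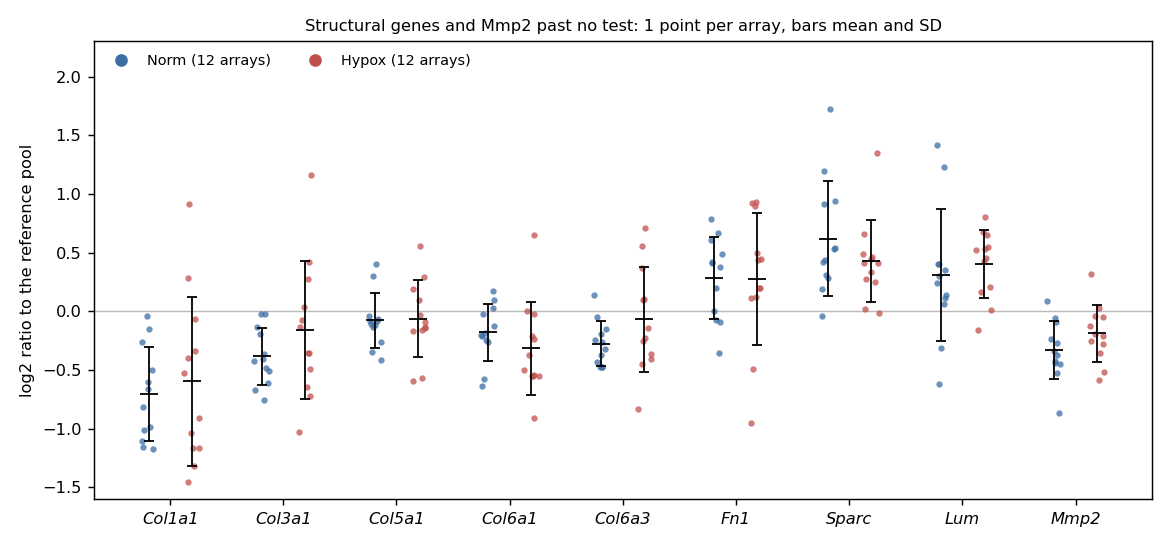
Log2 ratio to the reference pool of 9 members that did not pass the unadjusted test with all arrays, with 1 point per array for Norm (blue, 12 arrays) and Hypox (red, 12 arrays) and bars for mean and SD. The groups overlap throughout; for *Col1a1*, *Col3a1* and *Col6a3* the Hypox arrays spread wider than the Norm arrays.

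Among the FACIT collagens, 1 of 6 measured members passed. *Col22a1*, a collagen of the muscle-tendon junction (chr15:71628906-71628965), ran from -0.28 over 0.06 to 0.52 in Norm and from -0.61 over -0.10 to 0.03 in Hypox. All 12 Hypox arrays lay below the Norm median, 4 of them below every Norm array. The log2 difference was -0.27 with SE 0.1005 (p = 0.0135, BH-adjusted 0.265), lower on 4 of 6 slides. A second, dimmer probe of the gene, for another transcript, showed -0.04 (p = 0.661). *Col12a1* (0.04, p = 0.626) and *Col14a1* (0.08, p = 0.448), which coat the surface of type I fibrils, as well as *Col16a1* (0.07) and *Col20a1* (0.13, p = 0.212) had differences within the spread of the arrays. *Col12a1* was well above background on 11 of 24 arrays, so its value is imprecise.

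No chain of collagen VI, the beaded collagen whose loss causes a congenital muscular dystrophy, passed the test. *Col6a1* ran from -0.64 over -0.19 to 0.17 in Norm and from -0.91 over -0.44 to 0.65 in Hypox, a difference of -0.14 (standard error 0.127, p = 0.292). Hypox replicate 5 was the only Hypox array above every Norm array. Without it the difference was -0.22 (p = 0.0406). The difference shrank to -0.08, and did not pass, when Hypox replicate 2, which held the lowest value, was left out. These were the largest and smallest differences with single arrays left out. *Col6a2* (-0.04, p = 0.743) and *Col6a3* (0.21, p = 0.133, higher on 5 of 6 slides) lay on either side of 0. Without Hypox replicate 8, *Col6a3* passed as higher (0.28, p = 0.0336). The anchoring fibril collagen *Col7a1* (-0.06, p = 0.590) and the multiplexin *Col18a1* (0.11, p = 0.205), whose end releases endostatin, did not pass either.

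The small leucine-rich proteoglycans, which bind fibrils and limit their lateral growth, split in direction. *Dcn* encodes decorin, which also binds TGF-β, and its probe (chr10:96980233-96980292) read 487 times background. It ran from 0.28 over 0.94 to 1.72 in Norm (n = 11, since Norm replicate 8 lacked a value) and from 0.14 over 0.49 to 1.37 in Hypox. Only 3 of 12 Hypox arrays exceeded the Norm median, although 10 of 12 lay within the range of Norm. The mean fell from 0.98 ± 0.44 (SD, n = 11) to 0.61 ± 0.41 (SD, n = 12), a log2 difference of -0.37 with SE 0.162 (0.772-fold, p = 0.0293, BH-adjusted 0.342). *Dcn* was lower on 6 of 6 slides, by between 0.23 and 0.78, and with the slide as a block its test gave p = 1.1e-04 (adjusted p = 0.0270). The largest of these, on slide 4, rests in Norm on replicate 2 alone, since replicate 8 lacked a value. Without the block the call was lost when Norm replicate 4 (-0.31, p = 0.0618), Norm replicate 11 (-0.30, p = 0.0662), Hypox replicate 1 (-0.34, p = 0.0520) or Hypox replicate 11 (-0.33, p = 0.0539) was left out.

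*Ogn*, osteoglycin (chr13:49719549-49719608), ran from -0.44 over 0.10 to 1.36 in Norm and from -0.57 over -0.23 to 0.36 in Hypox. Norm replicate 3 held the highest value, and 3 of 12 Hypox arrays lay above the Norm median. The log2 difference was -0.31 with SE 0.141 (p = 0.0370, BH-adjusted 0.364), lower on 6 of 6 slides. It was -0.20 (p = 0.0707) without Norm replicate 3, and the call was also lost, with values between -0.30 and -0.27, on leaving out Norm replicates 7 or 12 or any of Hypox replicates 3, 4, 6, 7, 8 and 10.

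*Fmod*, fibromodulin, which is abundant in tendon and competes for collagen binding (chr1:135943998-135944057), moved the other way. It ran from -0.91 over -0.32 to 0.35 in Norm and from -0.87 over 0.08 to 0.57 in Hypox. Of the 12 Hypox arrays 10 lay above the Norm median and 3 above every Norm array. The mean rose from -0.36 ± 0.37 (SD, n = 12) to 0.025 ± 0.41 (SD, n = 12), a log2 difference of 0.39 with SE 0.148 (1.31-fold, p = 0.0141, BH-adjusted 0.266). On 4 of 6 slides it lay higher, and on slides 1 and 4 lower, by 0.36 and 0.31. *Fmod* kept its call with each array left out in turn, with values from 0.34 to 0.47. *Bgn*, biglycan, differed by -0.10 (p = 0.226) and *Lum*, lumican, by 0.09 (p = 0.588).

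Of the glycoproteins, 1 of 5 passed. *Postn*, periostin, a matricellular protein induced by TGF-β (chr3:54194840-54194899), ran from -0.47 over -0.10 to 0.29 in Norm and from -0.27 over -0.03 to 1.74 in Hypox. Of the 12 Hypox arrays 11 lay above the Norm median, but only Hypox replicates 7, 9 and 11 lay above every Norm array. The mean rose from -0.074 ± 0.23 (SD, n = 12) to 0.31 ± 0.65 (SD, n = 12), a log2 difference of 0.38 with SE 0.183 (p = 0.0466, BH-adjusted 0.398). It lay higher on 3 of 6 slides only, and with slides as blocks p was 0.0505. Its call was lost without any of 13 arrays, namely Norm replicates 1, 2, 4, 5, 6, 8, 9, 10 and 12 and Hypox replicates 3, 7, 9 and 11. The values without them lay between 0.25, without Hypox replicate 11, and 0.39. *Postn* was well above background on 14 of 24 arrays.

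*Sparc*, a collagen-binding protein, was read by 2 probes of the same transcript that differed in sign. The brighter (base 1303 of the transcript) ran from -0.04 over 0.48 to 1.72 in Norm and from -0.01 over 0.41 to 1.35 in Hypox, a difference of -0.19 (p = 0.241 over genes). The dimmer (base 2240) differed by 0.28 (p = 0.0694 over probes). *Fn1*, fibronectin, differed by -0.009 (standard error 0.176, p = 0.958), a sign that turned without any of 10 arrays. *Fbn1*, the main protein of microfibrils (-0.04, p = 0.685), and *Tnxb*, tenascin X (0.06, p = 0.576), did not pass. *Eln*, elastin, was not measured (1.34 times background).

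The metalloproteinase inhibitors held 3 of the 9 called members. *Timp2*, which inhibits several metalloproteinases and also takes part in activating MMP2, was read by its brightest probe at chr11:118163146-118163205. It ran from -0.11 over 0.33 to 1.07 in Norm and from -0.78 over 0.13 to 0.50 in Hypox, with 3 Hypox arrays below every Norm array and 3 above the Norm median. The mean fell from 0.42 ± 0.30 (SD, n = 12) to 0.022 ± 0.42 (SD, n = 12), a log2 difference of -0.40 with SE 0.141 (0.758-fold, p = 0.00841, BH-adjusted 0.229), the smallest p among the members. It was lower on 6 of 6 slides, by between 0.042 and 0.71, and kept its call with each array left out (-0.45 to -0.33, the latter without Hypox replicate 2). The dimmer probe of *Timp2*, at base 652 of the transcript against base 2791, differed by 0.13 (standard error 0.105, p = 0.216), so that the mean of both probes gave -0.13 (p = 0.0347).

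*Timp3*, the inhibitor that stays bound to the matrix (chr10:85811696-85811755), ran from -0.50 over 0.10 to 0.53 in Norm and from -1.39 over -0.20 to 0.29 in Hypox. Only 2 of 12 Hypox arrays lay above the Norm median, and Hypox replicate 2 held the lowest value. The log2 difference was -0.34 with SE 0.147 (p = 0.0282, BH-adjusted 0.336), lower on 6 of 6 slides though by only 0.0065 on slide 6. The call was lost without Hypox replicate 2 (-0.24, p = 0.0554), Hypox replicate 12 (-0.29, p = 0.0563) or Norm replicate 9 (-0.30, p = 0.0544). *Timp4*, an inhibitor found mainly in heart and muscle (chr6:115196120-115196179), ran from -0.90 over -0.64 to -0.04 in Norm and from -0.62 over -0.36 to -0.01 in Hypox. All 12 Hypox arrays lay above the Norm median, and 1 above every Norm array. The log2 difference was 0.22 with SE 0.0963 (p = 0.0281, BH-adjusted 0.336). It lay higher on 4 of 6 slides, and its call was lost, with values between 0.19 and 0.20, on leaving out any of Norm replicates 5, 9 and 10 or the array of Hypox replicate 8. *Mmp2*, the gelatinase that degrades denatured and type IV collagen, differed by 0.14 (standard error 0.0994, p = 0.161), and *Lox* was not tested.

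**Figure D4:**
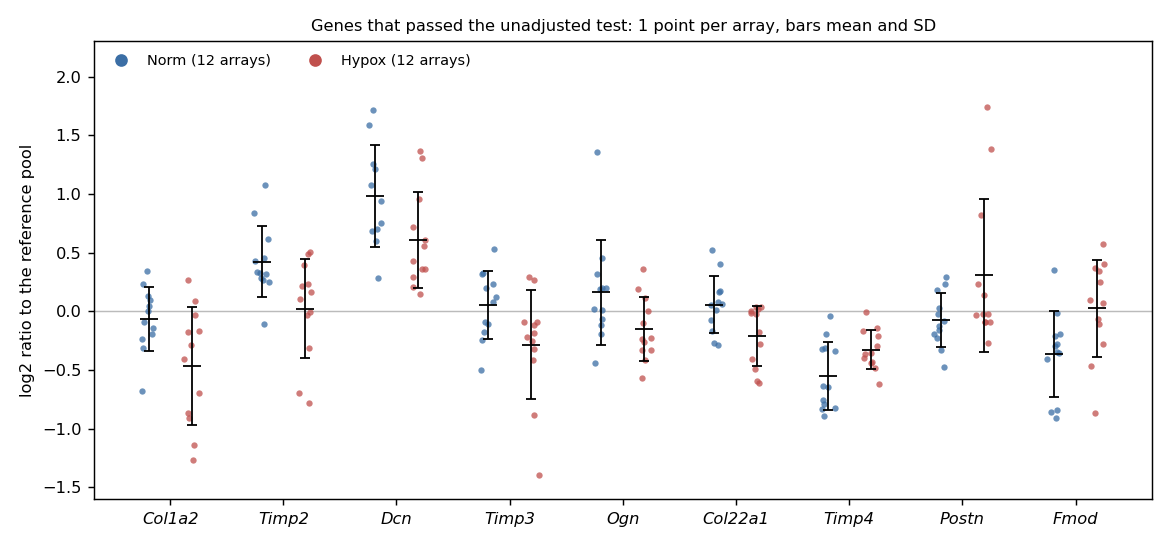
Log2 ratio to the reference pool of the 9 members past the unadjusted threshold, with 1 point per array for Norm (blue, 12 arrays; 11 for *Dcn*) and Hypox (red, 12 arrays) and bars for mean and SD. The groups overlap for every gene; 5 Hypox arrays lie below all Norm arrays for *Col1a2*, and 3 Hypox arrays stand above all Norm arrays for *Postn*.

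**Figure D5:**
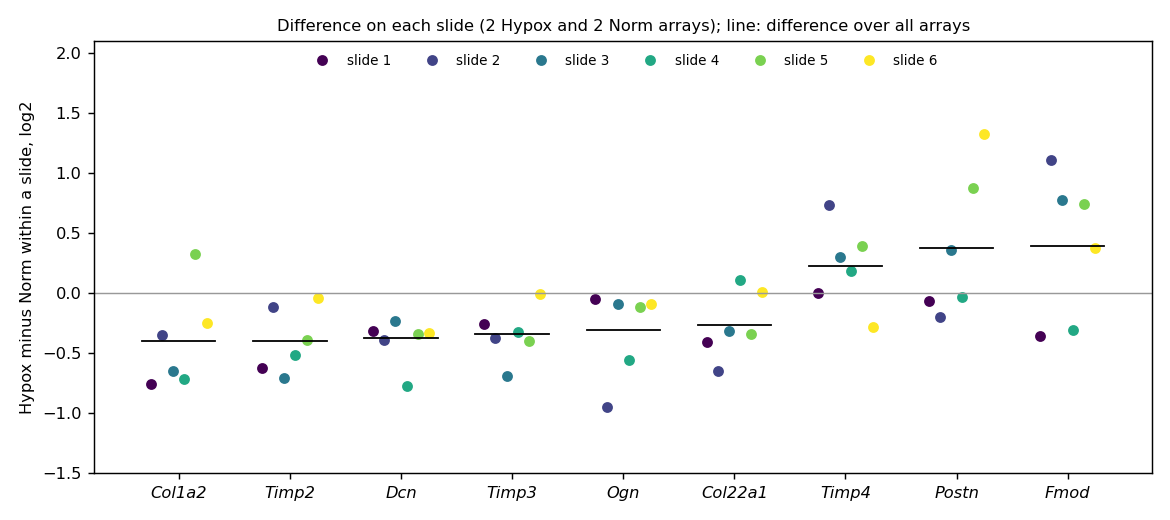
Hypox minus Norm within each of 6 slides (2 arrays of each group, colours) and over all arrays (black lines), on the log2 scale, for the same 9 members. For *Dcn* on slide 4, Norm rests on replicate 2 alone. *Dcn*, *Timp2*, *Timp3* and *Ogn* lie below 0 on 6 of 6 slides, whereas *Postn* runs from -0.20 on slide 2 to 1.33 on slide 6.

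All these directions refer to loess-normalized ratios. With each array centred on its median in place of loess, the median of all genes moved to 0.25. There *Col1a2* (0.10), *Col22a1* (0.0008), *Dcn* (0.19), *Timp2* (0.07) and *Timp3* (0.03) turned positive, yet remained below the median of all genes. *Fmod* (0.67), *Postn* (0.48) and *Timp4* (0.43) lay above it, and of the 9 called members *Postn* alone kept its call (p = 0.0478). With Cy5 alone *Col1a2*, *Ogn*, *Timp2* and *Timp4* kept theirs, and in the deposited series values *Fmod* did. Calls were also lost with array weights (*Col1a2*, *Col22a1* and *Timp3*), with the processed signals of the scanner (*Col22a1* and *Postn*), by the methods' t-test (*Ogn* and *Postn*) and with averaged probes (*Col22a1*).

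Whether members varied together from mouse to mouse was examined for 4 fixed pairs over the 24 arrays, as deviations from the group means. *Col1a1* and *Col1a2*, which form the same triple helix, correlated with Pearson's r = 0.44 (permutation p = 0.0317, adjusted over the pairs 0.127) and Spearman's rho = 0.55 (permutation p = 0.00600, adjusted 0.0240). Without the 2 arrays farthest from the median of *Col1a1*, Hypox replicates 11 and 12, r was 0.66. With slide means removed it was 0.29 (permutation within slides, p = 0.259, adjusted 0.967). *Col1a1* and *Col3a1* (r = 0.079, rho = 0.097, adjusted permutation p = 0.712 and 0.652) did not pass. Neither did *Col1a1* with *Sparc* (r = 0.16, rho = 0.24) or with *Fmod* (r = 0.17, rho = 0.25), with adjusted permutation p-values of 0.611 for r and 0.344 for rho in both. These values depend on the normalization, since with median centring in place of loess the pairs correlated at 0.92, 0.86, 0.90 and 0.86. A planned pair of *Fmod* with the tendon gene *Tnmd* was not computed, because *Tnmd* lay below the signal threshold (1.81 times background).

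The windows of RefSeq promoters (GRCm38.p6, 250 bases before to 50 after a transcript start) were searched for the cores of hypoxia response elements, ACGTG and GCGTG, and for the forkhead site GTAAACA, on both strands. Of the 30 measured members 22 had a window, and 7 of the 9 called ones. One or the other core was in the windows of 8 of the 22 genes, beside 46.7% of all 27025 genes with a window, and GTAAACA in 1 of 22 (*Col6a1*) beside 4.05%. The stretch from 150 to 51 bases before the start is printed for 6 called members, since all core matches of called members lie in it, on the gene's strand with matches in capitals. It lies at chr6:4505468-4505567 (+) for *Col1a2*, chr11:118355462-118355561 (-) for *Timp2*, chr10:86300262-86300361 (+) for *Timp3*, chr13:49607865-49607964 (+) for *Ogn*, chr1:134037104-134037203 (+) for *Fmod* and chr6:115252256-115252355 (-) for *Timp4*.
Col1a2: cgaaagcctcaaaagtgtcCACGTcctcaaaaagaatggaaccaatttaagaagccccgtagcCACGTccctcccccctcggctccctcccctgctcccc
Timp2: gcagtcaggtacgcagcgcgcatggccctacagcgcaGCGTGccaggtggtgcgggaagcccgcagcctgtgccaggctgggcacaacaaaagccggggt
Timp3: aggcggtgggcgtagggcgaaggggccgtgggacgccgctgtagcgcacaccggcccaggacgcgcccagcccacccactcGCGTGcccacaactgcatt
Ogn: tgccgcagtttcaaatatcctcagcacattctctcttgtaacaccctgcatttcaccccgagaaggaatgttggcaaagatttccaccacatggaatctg
Fmod: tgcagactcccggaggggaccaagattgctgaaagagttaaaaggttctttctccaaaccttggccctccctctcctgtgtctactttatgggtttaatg
Timp4: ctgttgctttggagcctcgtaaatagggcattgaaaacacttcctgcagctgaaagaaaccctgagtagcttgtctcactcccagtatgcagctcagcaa
*Col1a2* held ACGTG on the opposite strand at 131 and 87 bases before the start, and *Timp2* and *Timp3* held GCGTG on the gene's strand at 113 and 69 bases. *Ogn*, *Fmod*, *Timp4* and *Postn* held no match in their windows. A match describes letters only.

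The genes that make, bind and signal for this matrix were read beside it from fixed lists. Of 29 collagen processing enzymes 19 were measured and 0 passed in either direction by limma at an unadjusted p under 0.05 (median 0.035). *P4ha1*, a subunit of the oxygen-dependent prolyl hydroxylase, differed by 0.09 (p = 0.167), *P4ha2* by 0.02 (p = 0.841), the collagen chaperone *Serpinh1* by 0.09 (p = 0.419) and the lysyl oxidase *Loxl2* by 0.17 (p = 0.182). The smallest p-values were those of *P3h4* (0.18, p = 0.0769), *P3h3* (0.13, p = 0.0858) and the disulfide isomerase *P4hb* (0.10, p = 0.139). *Plod2* was not measured. With the slide as a block 1 of the 19 was higher.

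Of 9 collagen receptors 4 were measured and 3 were lower, among them *Ddr2*, a receptor kinase for fibrillar collagen. *Ddr2* differed by -0.26 (standard error 0.0852, p = 0.00472, adjusted p = 0.194), lower on 6 of 6 slides. The integrin subunits *Itgb1* (-0.19, p = 0.0133) and *Itga11* (-0.25, p = 0.0208), which pair to bind collagen I, were lower on 5 of 6 slides each. *Ddr1* differed by 0.04 (p = 0.622).

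Of 18 other matrix proteases and their inhibitors 3 were measured. *Adamts1*, a protease of versican and aggrecan, was lower by -0.40 (p = 0.00552, adjusted p = 0.197), on 6 of 6 slides. *Ctsk* (0.25, p = 0.0601) did not pass, and *Mmp14* was not measured. Of 45 other interstitial matrix proteins 31 were measured, with a median of 0.015, and 3 were higher and 0 lower. These were *Ccn1* (0.40, p = 0.00212, adjusted p = 0.140), *Cilp* (0.26, p = 0.0349) and *Fbln5* (0.16, p = 0.0477), while *Ccn2* differed by 0.06 (p = 0.559). With the slide as a block, 1 of the 3 proteases was higher, and 2 of these 31 proteins. Of 20 genes of the TGF-β and PDGF axis 14 were measured and 1 was lower, *Pdgfa* (-0.25, p = 0.0120), followed by *Acvr2b* (-0.21, p = 0.0662) and *Acvr1b* (0.14, p = 0.158). *Tgfb1* was not measured.

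Marker lists of the cells that the muscle holds gave the following values, and their part in the members' differences was not tested. Of 14 fibroblast markers 12 were measured, 1 was higher (*Hic1*, 0.23, p = 0.0346) and 1 lower (*Cd34*, -0.26, p = 0.0464), and *Pdgfra* differed by -0.0008 (p = 0.991). Their mean log2 ratio spanned -0.23 to 0.13 over the Norm arrays and -0.09 to 0.19 over the Hypox arrays. Of 10 tendon markers 7 were measured and 1 was higher (*Cilp*). Their mean spanned -0.42 to 0.003 over Norm and -0.59 to 0.15 over Hypox. Of 7 adipocyte markers 5 were measured, all with negative differences, 2 of them past the test (*Cfd*, -0.56, p = 0.0177 and *Adipoq*, -0.33, p = 0.0309). The mean of the adipocyte markers spanned -0.68 to 0.96 over Norm and -0.72 to -0.12 over Hypox. Of 7 nerve and Schwann cell markers 6 were measured, also all below 0, with 2 past the test, among them *Prx* (-0.28, p = 0.0281). Endothelial (*Esam*, 0.28 and *Cdh5*, 0.38), smooth muscle and pericyte (*Kcnj8*, 0.24) and muscle fibre lists (*Mylpf*, 0.36) held 2 of 4, 1 of 7 and 1 of 8 measured markers that passed as higher, and 0 as lower. By sign alone, 2 of 4, 4 of 7 and 5 of 8 lay below 0, with medians of 0.14, -0.03 and -0.19. The muscle fibre markers below 0 included *Myh4* (-0.59) and *Pvalb* (-0.48). When slides were blocks, however, 3 muscle fibre markers were lower, as were 3 adipocyte and 4 nerve and Schwann cell markers. Of 7 macrophage markers 3 were measured and 0 passed by limma at an unadjusted p under 0.05. Of 8 lung markers *Sftpc* was measured, with a probe well above background on 0 Norm and 4 Hypox arrays. Its difference (0.81, p = 0.0153, BH-adjusted 0.271) is therefore not independent of the signal filter, and no conclusion is drawn from it. Hypox replicate 8 held the highest value (2.57).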

How the data were processed

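The authors deposited, per array, intensity per spot from Agilent Feature Extraction 10.7.3.1 (mean signal and local background of both dyes, not normalized between arrays), and a series table of normalized log2 values, whose scaling and use of Cy3 are unknown and whose columns all have a median of 6.58. For the dyes the sample descriptions were followed, because Hypox replicates 5 to 9 carry other dye labels. Backgrounds were corrected with normexp (offset 50), the log2 Cy5/Cy3 ratio was normalized by loess within arrays, control spots and 7260 flagged readings were left out, and 0 spots were saturated. Probes over 2 times background with at most 4 missing arrays were kept, named by RefSeq accession, symbol or synonym, and the brightest stood for its gene (9139 genes). Groups were compared (Hypox minus Norm) with limma 3.58.1 in R 4.3.3, with Benjamini-Hochberg adjustment. Correlations used 100000 permutations.

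Probe positions are those of mm9, and promoters those of RefSeq. The members and gene lists were chosen with earlier results of these data known. In full are given members past 0.05 and main structural genes, of other lists the 3 smallest p-values and some fixed genes; some genes that this rule includes are not reported here. Proteins were not analysed here. On simulated data with 9139 genes, limma recovered 77% of changes of 0.5 and 100% of changes of 1 on the log2 scale after adjustment, with 8 false calls. The simulated noise was independent between genes and arrays, without slide effects, and the changed genes were drawn from all genes. These shares therefore check the method and do not measure how readily a change in the members would be found. Alternatives are given in the closing section. The number of arrays limits the precision.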

Additional observations from a re-analysis of the deposited data

How the results depend on the processing

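Recomputation used the processed signals of the scanner, median centring in place of loess, Cy5 alone, the series table, the methods' t-test, filters of 1.5 and 3 times background or none, averaged probes, the slide and the replicate number as blocks, array weights, leaving out slide 1 and each array, and, chosen after seeing the data, a filter without flagged readings. Median centring moved all genes most (32 genes higher and 0 lower without adjustment, against 655 and 463). Over all genes, the 31 past adjustment became 0 with median centring, 1 with the series values, 9 by the methods' t-test, 8 without a filter, 13 with Cy5 alone or the filter of 1.5, 18 with the replicate block, 66 with processed signals, 70 with slides as blocks and 270 with array weights. With median centring, 1 member was higher and 0 lower, and the members' median moved to 0.19, beside 0.25 over all genes. Cy5 alone gave 1 higher and 3 lower, the deposited series values 1 higher (*Fmod*) and 0 lower, and array weights 4 higher and 3 lower. After adjustment 1 member passed with the processed signals (*Timp2*, -0.42, adjusted p = 0.0392), with the slide as a block and with array weights (both *Dcn*), and 0 in the other fits. Leaving out an array gave 1 to 3 higher (1 without Norm replicate 5, 9 or 10), 5 to 7 lower, 0 past adjustment and a median from -0.02 to 0.06. The replicate numbers paired nothing (3 of 12 pairs with a correlation of deviations over 0.1, 1 of 12 best matched to each other), and the replicate block gave 3 higher, 6 lower and a median of 0.026.

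Of 756 recomputed values of the 20 genes given in full, 656 kept direction and side of the threshold. Another 58 kept direction but lost a call, 3 kept direction and gained one, and 39 turned in sign. A turned sign was counted whatever its p, so the 39 also hold lost calls. Those of *Col1a2*, *Col22a1*, *Dcn*, *Timp2* and *Timp3* with median centring are among them. The 656 are no measure of how firm the calls are. Only 9 of the 20 were called, so the others kept their side by staying uncalled, and many of the fits left out a single array. *Mmp2* passed as higher with array weights (0.19, p = 0.0489) and without slide 1 (0.22, p = 0.0474). Without a filter, *Col23a1* (0.19, p = 0.000511) and *Col9a1* (-0.11, p = 0.0396), both below the signal threshold, passed as higher and lower. Signs turned with the processed signals (*Col12a1* -0.11), with median centring (*Bgn* 0.066, *Col1a2* 0.10, *Col22a1* 0.00078, *Col6a1* 0.19, *Dcn* 0.19, *Fn1* 0.33, *Sparc* 0.43, *Timp2* 0.071, *Timp3* 0.026), with Cy5 alone (*Col12a1* -0.057, *Sparc* 0.035), in the series table (*Col12a1* -0.050, *Col14a1* -0.016, *Col5a1* -0.051, *Col6a1* 0.044, *Dcn* 0.053, *Fn1* 0.12, *Sparc* 0.25), with the mean of probes (*Sparc* 0.043), array weights (*Fn1* 0.17) and without slide 1 (*Fn1* 0.032). With arrays left out, *Fn1* ran from -0.069 to 0.10, *Col5a1* from -0.041 to 0.064 and *Col1a1* from -0.030 to 0.19. The correlation of *Col1a1* with *Col1a2* was 0.36 with Cy5 alone, 0.53 with processed signals, 0.80 in the series table and 0.92 with median centring. The cause of these changes was not tested. The probes of *Col12a1*, *Col5a1* and *Postn* were well above background on 11, 13 and 14 of 24 arrays, which limits their values.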
